A study of Oryza sativa with 4 samples.

Results

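WNK kinases are encoded in rice by a small gene family, and the 9 genes described here are those whose symbol or synonym, with any Os prefix removed, is WNK followed by a number (WNK1 to WNK9). All 9 were measured, by 14 of the 57194 probe sets in the table, and they are 9 of the 17905 genes that a probe set could be assigned to. Transcript levels were read on Affymetrix rice arrays in leaves of Oryza sativa cultivar Senia at the second vegetative stage. In the treated group, plants stood for 6 h in the dark at 27 °C in sealed bags with CO2 raised to 30%. Control plants spent the same 6 h in the dark at the same temperature in normal atmosphere, labelled 0.04% CO2, and the labels do not say whether they were bagged. Each group had 2 biological replicates, each pooled from the leaves of 10 plants, so that differences between single plants cannot be seen.

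WNK stands for "with no lysine": in these serine/threonine protein kinases the lysine that binds ATP lies at another place in the active site than in other protein kinases. In animals WNK kinases respond to chloride and to osmotic stress and, through the kinases SPAK and OSR1, control cation-chloride cotransporters. In Arabidopsis WNK kinases have been linked to the circadian clock through phosphorylation of a pseudo-response regulator, to the vacuolar proton pump, to heterotrimeric G protein signalling, to flowering time and to abscisic acid responses. In rice, WNK1 transcript is known to follow the time of day and to respond to abiotic stress.

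The family was chosen by gene name, and it was selected on its signals too, since the log2 differences of its probe sets between 30% CO2 and control were already known. The values of its members in that comparison are therefore given as a description, without a test. All values are RMA signals on the log2 scale, in which a difference of 1 is a 2-fold change, and each difference is the mean under CO2 minus the mean in controls, with the standard error from limma's fit over all probe sets. The leaf tissue made no separation of cell types, and fewer cells of a type or less RNA per cell cannot be told apart from lower expression in each cell.

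Medians of the 4 samples lay between 3.85 and 3.92. Of 9 leaf markers measured, rbcS (small subunit of Rubisco) read 13.63 to 13.65 and rca (Rubisco activase) 13.00 to 13.08, while RBCS1 read 2.74 to 3.30. Those that passed the threshold in limma's test were 3 of the 9, all lower under CO2: the ferredoxin-NADP reductase gene LOC4342399 (named FNR) by -1.35, the chlorophyll a/b binding protein gene RCABP89 by -1.33 and the photosystem I subunit gene PSAH by -0.84 on the log2 scale. The other 6 stood between -0.55 and 0.07, among them 2 more genes named FNR, LFNR1 at -0.55 and LOC4334338 at 0.07. The 9 seed markers read between 1.86 and 4.58 except GLUA-2 (8.54 to 9.11). The 8 pollen and panicle markers read between 2.23 and 5.23 except 1 of 2 MADS2 genes (6.84 to 7.91), and the 4 root markers between 2.52 and 7.03. Markers were gathered by name or synonym, so that a gene of another kind may be among them. The seed marker RAG is also named MADS3, and the MADS2 gene set apart here is also named MADS18. Of the 4 root markers, IRT1 (an iron transporter gene) passed, also lower under CO2, at -2.47. None of the seed, pollen and panicle markers passed. Of the seed markers 0, and of the pollen and panicle markers 2, had an unadjusted p under 0.05 in limma's test, beside 43.9% of all genes. Over all genes, each on its brightest probe set, 13.5% were called lower and 8.93% higher. The summed log2 signal of the leaf markers was 92.14 to 92.71 under CO2 and 96.77 to 97.59 in controls. The part of these markers in the WNK values was not tested.

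WNK5 stood higher in both CO2 samples, by about 5-fold, and had the largest difference of the 14 WNK probe sets. WNK7 and WNK8 stood about 2-fold higher on all 4 of their probe sets. The other 6 genes had small differences, from -0.36 to 0.61 on the log2 scale, with WNK9 the single gene whose probe sets read lower under CO2. In the fit over all probe sets, 5 of the 14 WNK probe sets had a Benjamini-Hochberg adjusted p under 0.05, all of them higher under CO2 and all from WNK5, WNK7 and WNK8, where 4.73% of all probe sets were called higher and 6.78% lower (11.5% in all). The other 9 did not pass. By gene, on the brightest probe set, 3 of 9 were called, all higher, beside 8.93% of all genes called higher and 22.4% called in either direction. As the family was picked with this comparison known, nothing is read from these counts.

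**Figure D1:**
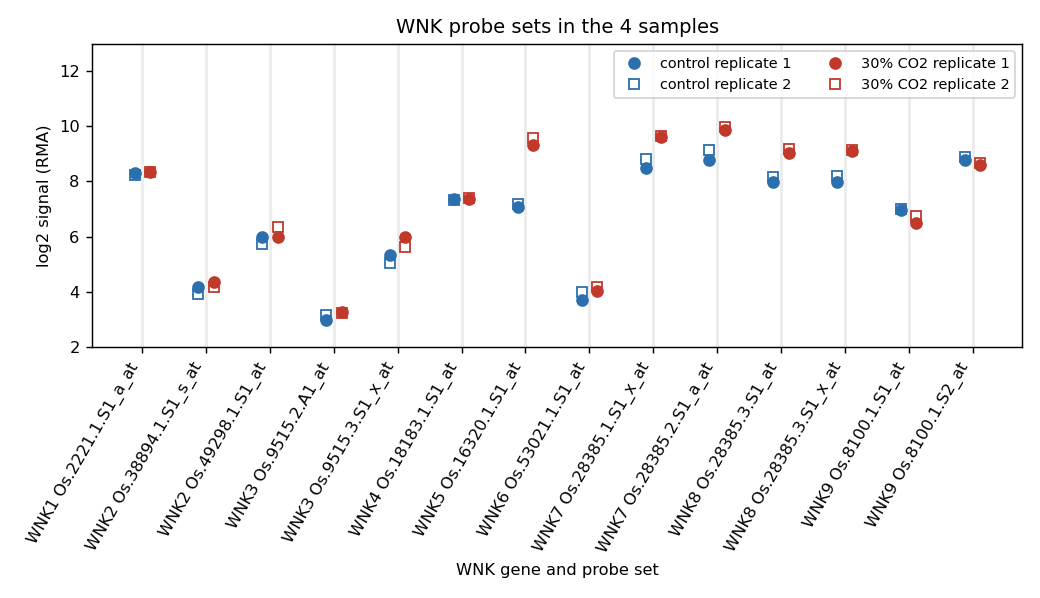
Log2 RMA signal (vertical axis) of each of the 14 WNK probe sets (horizontal axis) in the 4 samples, with controls in blue and 30% CO2 in red, replicate 1 as filled circles and replicate 2 as open squares. WNK5 reads 7.05 and 7.17 in controls and 9.33 and 9.58 under CO2, and the 4 probe sets of WNK7 and WNK8 also separate clearly.

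WNK5 (LOC4343738) is represented by the single probe set Os.16320.1.S1_at, whose name carries no suffix for several transcripts. It read 7.05 and 7.17 in control replicates 1 and 2 and 9.33 and 9.58 in CO2 replicates 1 and 2. Both CO2 samples were far above both controls, and the gap between the groups was many times the spread within them. The mean went from 7.11 ± 0.09 (SD, n = 2) to 9.45 ± 0.18, a log2 difference of 2.34 ± 0.15 (SE), or 5.07-fold. The difference lay above the central 95% of all probe sets, which runs from -1.45 to 1.40. With any 1 of the 4 samples left out, it stayed between 2.21 and 2.47.

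WNK7 (LOC4349598) and WNK8 (LOC4351311) are represented by 2 probe sets each, and all 4 belong to the same design cluster of the array, Os.28385. An ending of _x_at marks probes that may bind other transcripts as well, and _a_at marks probes that bind several transcripts of a gene. For WNK7, Os.28385.2.S1_a_at read 8.77 and 9.14 in controls and 9.85 and 9.97 under CO2. Its second probe set, Os.28385.1.S1_x_at, read 8.47 and 8.80 in controls and 9.59 and 9.63 under CO2. In both, the control replicates differed more from each other than the CO2 replicates did, and the groups did not overlap. The log2 differences were 0.95 ± 0.17 and 0.98 ± 0.16, or 1.94-fold and 1.97-fold.

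For WNK8, Os.28385.3.S1_at read 7.99 and 8.15 in controls and 9.03 and 9.18 under CO2, and Os.28385.3.S1_x_at read 7.98 and 8.20 in controls and 9.11 and 9.12 under CO2. Again both CO2 samples were above both controls. The log2 differences were 1.04 ± 0.14 and 1.02 ± 0.13, or 2.05-fold and 2.03-fold. After subtracting each probe set's own mean, the 4 probe sets differed from one another by a root mean square of 0.03 to 0.08 over the 4 samples, against 0.65 to 0.70 between any of them and WNK5. With shared probe design the signals of WNK7 and WNK8 may be partly common, and the 2 genes are not separated with certainty on this array.

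**Figure D2:**
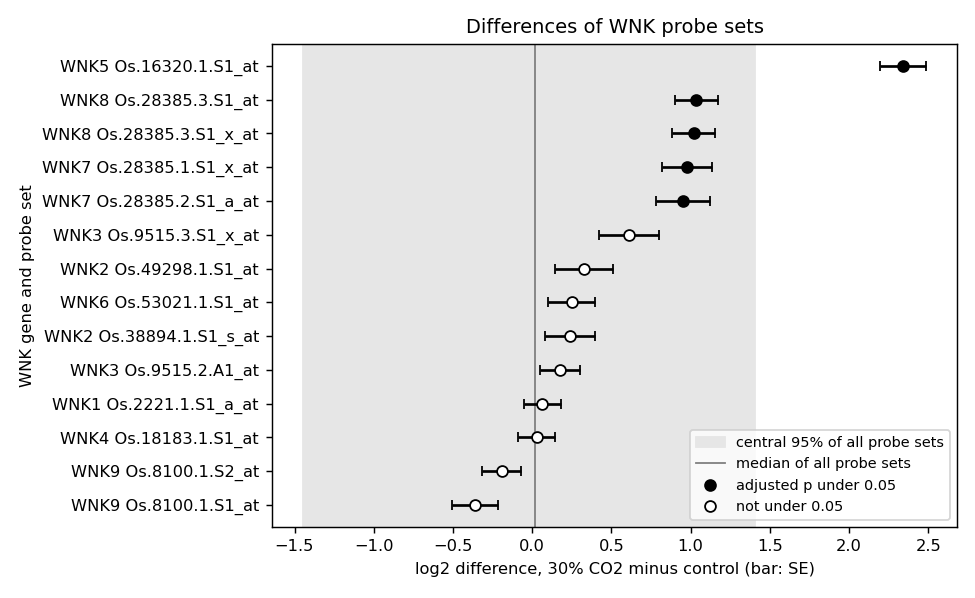
Log2 difference, 30% CO2 minus control, with its standard error (horizontal axis) for each of the 14 WNK probe sets (vertical axis). Filled points had an adjusted p under 0.05 in limma's fit, the grey band is the central 95% of all 57194 probe sets (-1.45 to 1.40) and the line their median (0.02). WNK5 at 2.34 lies beyond the band and the 4 probe sets of WNK7 and WNK8 lie at 0.95 to 1.04.

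WNK3 (LOC4342585) gave 2 different readings. On Os.9515.3.S1_x_at it read 5.34 and 5.05 in controls and 5.99 and 5.62 under CO2, a log2 difference of 0.61 ± 0.19. On Os.9515.2.A1_at it read 2.99 and 3.16 in controls and 3.26 and 3.24 under CO2, below the median signal of the table in every sample, with a difference of 0.17 ± 0.13. The larger of these differences rests on a probe set that may bind other transcripts, and neither passed the threshold.

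WNK2 (LOC4337579, also named RDRS1) read 5.98 and 5.72 in controls and 6.00 and 6.35 under CO2 on Os.49298.1.S1_at. Here CO2 replicate 1 lay only just above control replicate 1, and the log2 difference was 0.33 ± 0.18. Its second probe set, Os.38894.1.S1_s_at, which may bind several transcripts, read 4.18 and 3.90 in controls and 4.37 and 4.19 under CO2, with a difference of 0.24 ± 0.16. WNK6 (LOC4349847) read 3.72 and 3.99 in controls and 4.04 and 4.17 under CO2 on its 1 probe set, Os.53021.1.S1_at, a difference of 0.25 ± 0.15. The signals of WNK6 and of the second WNK2 probe set are close to the median of the table, and without detection calls they are not shown to be above background.

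WNK1 (LOC4343678), the member known for a daily rhythm, was nearly level. Its probe set Os.2221.1.S1_a_at read 8.30 and 8.24 in controls and 8.32 and 8.35 under CO2, a log2 difference of 0.06 ± 0.12. WNK4 (LOC4330286) read 7.35 and 7.34 in controls and 7.36 and 7.38 under CO2 on Os.18183.1.S1_at, a difference of 0.03 ± 0.12. For WNK1 and WNK4 the groups were apart by hundredths of a log2 unit only.

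WNK9 (LOC4351573), which in Arabidopsis plants carrying the rice gene has been tied to tolerance of salt and drought, was the member with lower readings under CO2. On Os.8100.1.S1_at it read 6.96 and 6.99 in controls and 6.48 and 6.75 under CO2, a log2 difference of -0.36 ± 0.14. On Os.8100.1.S2_at it read 8.78 and 8.87 in controls and 8.59 and 8.67 under CO2, a difference of -0.19 ± 0.12. Its 2 probe sets had the same direction, and neither passed the threshold.

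In all 14 WNK probe sets the groups did not overlap, with 12 higher and 2 lower under CO2. Among all probe sets, 27.8% had both CO2 samples above both controls and 26.0% had both below, 53.9% in all. The pooled within-group SD of the 14 ran from 0.01 for WNK4 to 0.23 for WNK3, so that separate groups went with differences as small as 0.03. The median log2 difference of the 14 probe sets was 0.29, beside 0.02 over all probe sets.

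Most calls were lost when 1 sample was left out, which leaves 1 residual degree of freedom. With CO2 replicate 1, control replicate 1 or control replicate 2 left out, limma called 0 of 57194 probe sets (11506, 9691 and 9246 had an unadjusted p under 0.05), and hence no WNK probe set, of which 5 had an unadjusted p under 0.05 each time. Without CO2 replicate 2 it called 2477, and WNK5 was the 1 WNK probe set among them. All 14 WNK differences kept their sign in these fits, as groups that do not overlap must when 1 sample is left out. WNK7 stayed between 0.77 and 1.14 and WNK8 between 0.91 and 1.13, and Os.9515.3.S1_x_at of WNK3 between 0.43 and 0.80. The smaller differences moved more for their size. WNK2 ran from 0.15 to 0.50 on Os.49298.1.S1_at and from 0.10 to 0.37 on Os.38894.1.S1_s_at, WNK6 from 0.11 to 0.38, and WNK3 from 0.09 to 0.26 on Os.9515.2.A1_at. WNK9 ran from -0.50 to -0.23 on Os.8100.1.S1_at and from -0.24 to -0.14 on Os.8100.1.S2_at. WNK1 lay between 0.03 and 0.09 and WNK4 between 0.02 and 0.04.

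Named genes whose values over the 4 samples were most like those of a called WNK probe set were found by the root mean square difference, after subtracting each gene's own mean, among 2457 genes with a name. Closest to WNK5 was GPI-B, for glucose-6-phosphate isomerase of glycolysis, at 0.03. Its signal read 8.98 and 9.12 in controls and 11.28 and 11.45 under CO2, within hundredths of a log2 unit of WNK5 once the means were removed. Next came NSHB2, for a nonsymbiotic hemoglobin, at 0.13 and AMPD, for AMP deaminase, at 0.14. STAR2, for the membrane part of an ABC transporter known for aluminium tolerance, and AAH, for allantoate amidohydrolase of ureide breakdown, both stood at 0.17.

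The genes closest to WNK7 were partly those closest to WNK8. CIPK25, for a kinase activated by calcium sensors of the CBL family, was closest to both WNK7 probe sets (0.02 for Os.28385.1.S1_x_at and 0.05 for Os.28385.2.S1_a_at) and second for Os.28385.3.S1_x_at of WNK8 (0.04). For Os.28385.1.S1_x_at of WNK7, WNK8 itself was the third nearest (0.05). CIPK25 read 7.51 and 7.83 in controls and 8.66 and 8.64 under CO2. ABCI12, also named STAR1, for the ATP-binding partner of STAR2, was among the nearest 5 of both WNK7 sets and of that WNK8 set, at 0.03 to 0.06, and so was TLP12, a tubby-like protein gene, at 0.05 to 0.07. DRB2, for a double-stranded RNA binding protein, was near both WNK7 sets (0.06 each), and NEDD8, for a ubiquitin-like protein, was near Os.28385.2.S1_a_at (0.06) and Os.28385.3.S1_at (0.05). Nearest to Os.28385.3.S1_at of WNK8 was the catalase gene CAT-B at 0.04, on a probe set that may bind several transcripts, followed after NEDD8 by ACR2.1 (an arsenate reductase gene), TBL15 and ILL7 at 0.06 to 0.07. The calcium sensor gene CBL3 and RMR2, the latter on a probe set that may bind other transcripts, stood at 0.05 from Os.28385.3.S1_x_at. With 4 samples many genes have like values, and these distances are a description only.

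**Figure D3:**
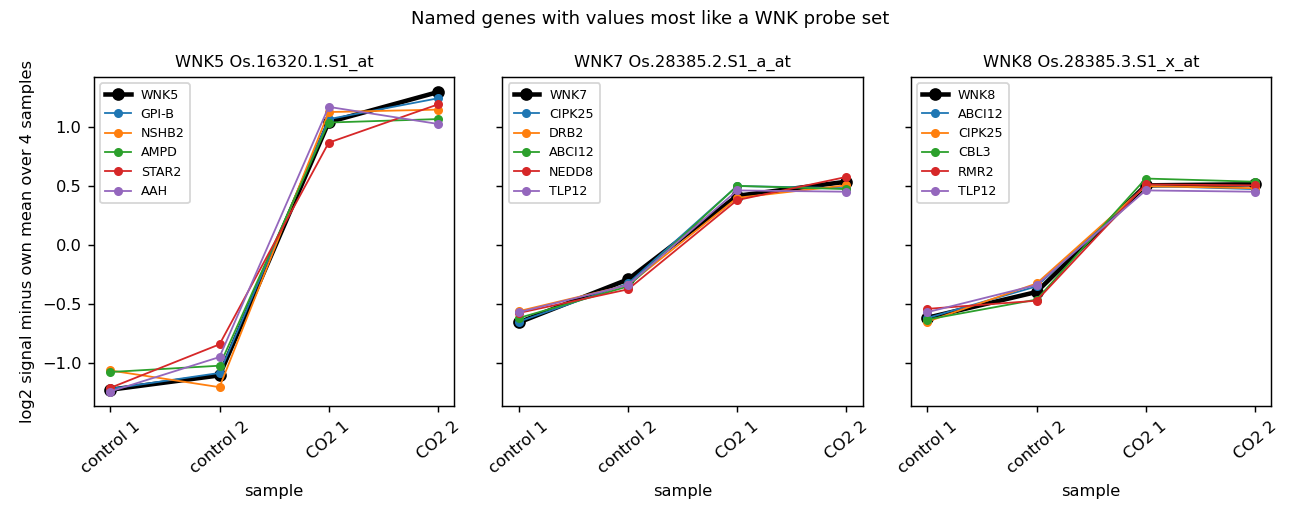
Log2 signal minus each gene's own mean over the 4 samples (vertical axis) in the 2 controls and 2 CO2 samples (horizontal axis), for 1 probe set each of WNK5, WNK7 and WNK8 (black) and the 5 named genes most like it. Lines only join the samples of a gene. GPI-B follows WNK5 at a root mean square difference of 0.03, and CIPK25 and ABCI12 appear beside both WNK7 and WNK8.

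Genes of the processes in which plant WNK kinases have been placed were counted from lists, each gene standing on its brightest probe set. Over these lists 12 of 71 measured genes rose, 2 fell and 57 did not pass, beside 8.93% of all genes called higher and 13.5% called lower (22.4% in all). The median log2 difference of the 71 was 0.09, and that of all genes was -0.08. Calls from the fits with 1 sample left out are not read for these lists, since most of those fits called no probe set at all.

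In the circadian clock list 1 of 7 measured genes rose, 0 fell and 6 did not pass. Of all genes, 8.93% were called higher and 13.5% lower. PCL1, a clock gene of the evening-expressed LUX type, read 8.35 and 8.71 in controls and 10.07 and 10.19 under CO2. Its log2 difference was 1.60 ± 0.17 (limma adjusted p = 0.00975). CCA1 (a morning-expressed clock gene, 0.93 ± 0.23, limma adjusted p = 0.0713) and PRR73 (a pseudo-response regulator, 0.73 ± 0.17, limma adjusted p = 0.0583) did not pass. Both passed with a trended and robust variance prior and among brighter probe sets alone, and in no other alternative: over all of them the limma adjusted p ran from 0.0432 to 0.379 for CCA1 and from 0.0417 to 0.328 for PRR73. The other pseudo-response regulators PRR1, PRR95 and PRR37, of the kind that a WNK kinase phosphorylates in Arabidopsis, stood at -0.53, -0.37 and -0.11 and did not pass. GI stood at 0.32.

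The 1 measured gene of the vacuolar proton pump, VATP-P1, did not pass (0.49 ± 0.13, limma adjusted p = 0.0889), although its CO2 samples (11.13 and 11.32) lay above its controls (10.70 and 10.76). Of the cation-chloride cotransporter genes, whose animal counterparts are the targets of WNK signalling, CCC1 was measured and stood at -0.08 ± 0.20 (limma adjusted p = 0.86), with 8.34 and 8.83 under CO2 around 8.75 and 8.59 in controls. It read 0.14 as the mean of its 2 probe sets and 0.16 without CO2 replicate 1. None of 3 heterotrimeric G protein genes passed, where 22.4% of all genes were called in either direction, so that little can be read from so few genes. RGB1 (the beta subunit) stood at 0.28 ± 0.19 and RGG1 (a gamma subunit) at 0.12 ± 0.44, with its controls at 4.35 and 3.06 on either side of both CO2 samples. None of 3 photoperiod flowering genes passed either, with Hd1 at -0.58 ± 0.20 (limma adjusted p = 0.159) and the florigen gene Hd3a at -0.25 ± 0.12 from signals below the median of the table. No gene carried the name EDR1 in the gene table used.

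Among abscisic acid receptors and protein phosphatases of the 2C class, 11 of 56 measured genes rose, 2 fell and 43 did not pass. Of all genes, 8.93% were called higher and 13.5% lower (22.4% in all). The median log2 difference of the 56 was 0.10. The receptor gene measured was PYL11, which did not pass (-0.34 ± 0.13, limma adjusted p = 0.192), and the other members measured are phosphatases. The list takes in every gene named PP2C, of which a subset is known to act in abscisic acid signalling. There these phosphatases hold kinases inactive until the hormone is bound. Whether the genes that rose belong to this subset was not examined. Members that carry the name ABIL, ABIL1 and PP2C53 (also named ABIL2), stood at -0.07 and -0.19 and did not pass. PP2C45 had the largest rise, from 8.89 and 8.62 in controls to 12.10 and 12.11 under CO2 (3.35 ± 0.14, limma adjusted p = 0.00357), but its other probe set stood at -0.15, so that the mean of both gave 1.60. PP2C34 rose by 2.25 ± 0.30 (limma adjusted p = 0.0164), with CO2 samples at 10.14 and 9.37 and controls at 7.72 and 7.30. PP2C61 rose by 1.69 ± 0.28 and PP2C11 by 1.48 ± 0.14. The members that fell were PP2C78 (-1.35) and PP2C16 (-1.07).

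The other stress kinase families with which WNK kinases can be set side by side also went both ways. Over 3 families 9 of 49 measured genes rose, 6 fell and 34 did not pass, against 22.4% of all genes called in either direction. Here too, calls from the fits with 1 sample left out say nothing of these families in particular. Of 10 SAPK genes, for kinases activated by osmotic stress and abscisic acid, 1 rose and 1 fell: SAPK6 by 0.81 ± 0.14 (limma adjusted p = 0.0299) and SAPK9 by -2.57 ± 0.15 (limma adjusted p = 0.00427), the latter on a probe set that may bind several transcripts.

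Of 24 CIPK genes, whose kinases are switched on by CBL calcium sensors, 8 rose, 4 fell and 12 did not pass. Of all genes, 8.93% were called higher and 13.5% lower. CIPK23 did not pass on its brightest probe set (-0.14). Its other probe set was called higher (0.89, limma adjusted p = 0.0152). CIPK10 fell by 3.80 on the log2 scale, with 10.08 and 10.48 in controls and 6.01 and 6.95 under CO2, and all 4 of its probe sets fell. CIPK5 fell by 2.23. CIPK2 rose by 3.29 ± 0.28 (limma adjusted p = 0.00671), from 8.69 and 8.05 to 11.88 and 11.42, and all 3 of its probe sets rose. CIPK16 rose by 2.88 ± 0.46. The brightest probe sets of CIPK2 and CIPK16 may bind other transcripts.

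Of 15 MAP kinase genes 0 rose and 1 fell in limma's test, beside 22.4% of all genes called in either direction. In the same test 11 had an unadjusted p under 0.05, beside 43.9% of all genes at that level. So did 8 of 10 SAPK genes and 13 of 24 CIPK genes. The gene that fell was LOC4328223, which carries the names MAPK2 and MPK13, by 0.82 on the log2 scale (limma adjusted p = 0.0357). The median log2 difference was 0.42 in the SAPK list, 0.25 in the CIPK list and -0.36 in the MAP kinase list. Whether the families differ from the WNK family in their response was not tested.

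**Figure D4:**
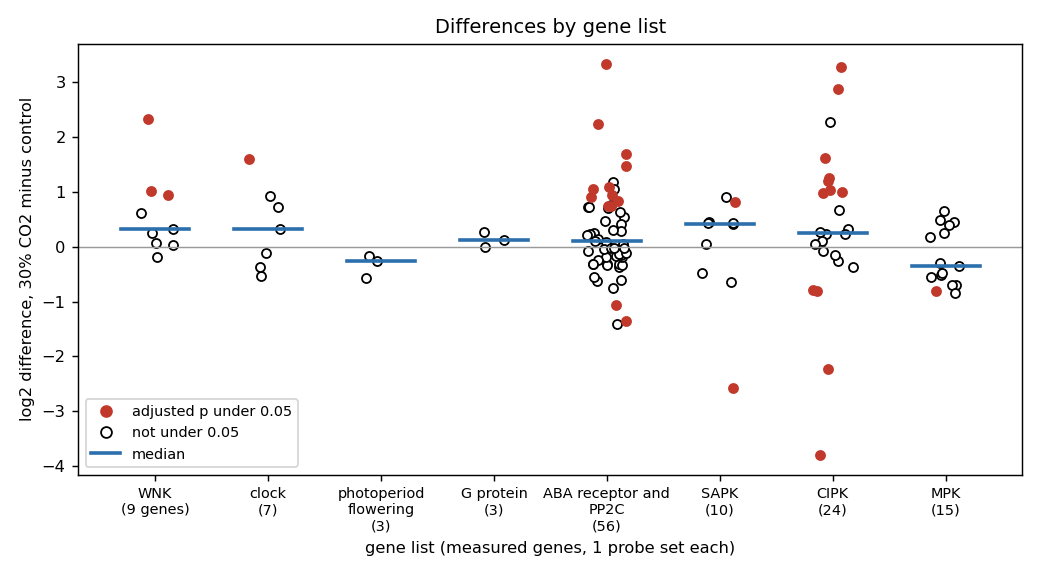
Log2 difference, 30% CO2 minus control (vertical axis), of each measured gene in the WNK family and in 7 gene lists (horizontal axis), with 1 probe set per gene. Red points had an adjusted p under 0.05 in limma's fit, open points did not, and blue bars are medians. PP2C45 at 3.35 and CIPK2 at 3.29 are the highest points, and CIPK10 at -3.80 is the lowest.

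Neighbouring genes were taken from the order of protein-coding genes in RefSeq's gene table, 5 on each side of each WNK gene. Of 90 neighbours 63 were measured, of which 6 rose and 6 fell, or 19.0%, beside 22.4% of all genes. Of 8 measured neighbours of WNK5, LOC4343737, the gene directly before it, was the 1 that passed (8.16 and 8.08 in controls, 9.25 and 8.81 under CO2, log2 difference 0.91, limma adjusted p = 0.0447), on a probe set that may bind several transcripts. WNK7 and WNK8 lie in neighbourhoods that resemble each other: CIPK15 is 4 genes before WNK7 and CIPK14 is 3 genes before WNK8, and lipid transfer protein genes, LTP2-A and LTP2-B, lie 5 genes after WNK7 and WNK8. None of the 3 measured neighbours of WNK7 and none of the 5 of WNK8 passed, and CIPK14 stood at 0.10 (limma adjusted p = 0.755), with 11.46 and 11.76 in controls and 11.67 and 11.75 under CO2.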

How the data were processed

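The authors deposited a log2 signal for each probe set and sample, and the submitters' processing notes name RMA and limma without versions. Values ran from 1.50 to 13.88 and no rescaling was applied. Detection calls are absent from the values used, and 4 arrays limit the precision. Names came from the array's annotation table and, by gene identifier, RefSeq's rice gene table (assembly ASM3414082v1, for names and gene order only): 22436 have 1 gene, 95 several and 34663 none. Differences were fitted with limma 3.58.1 in R 4.3.3 (lmFit, eBayes, two-sided, without block or filter), and p-values were adjusted by Benjamini-Hochberg across the 57194 probe sets. The fit had 2 residual and 2.85 prior degrees of freedom. A gene in a list is its probe set with the highest mean. On simulated data with 200 of 57194 probe sets changed 4-fold, the fit recovered 63.0%, and 5.97% of its calls were false. Members, lists and tests were chosen with earlier results of these data known. Named genes are every WNK gene, in each list the 4 largest changes that were called (failing that, the 2 members of smallest p), and the 5 genes most like each called WNK probe set. Added after their values were seen were PRR1, PRR37, PRR73, PRR95, CCA1, GI, CIPK14, CIPK15, CIPK23, LTP2-A, LTP2-B, PP2C78, PP2C16, PP2C53, ABIL1, PYL11, LOC4343737 and every tissue marker named (rbcS, rca, RBCS1, the FNR genes with LFNR1, RCABP89, PSAH, IRT1, GLUA-2, RAG and MADS2). Figures used matplotlib 3.10.9. Alternatives were a replicate block, each sample left out, quantile normalization, brighter probe sets alone, a trended and robust prior, leaving out _x_at and _s_at probe sets, and gene means.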

Additional observations from a re-analysis of the deposited data

How the results depend on the processing

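No WNK probe set changed direction under any alternative run, but only quantile normalization could have changed one. Blocks, priors and filters leave each difference as it is. Leaving out 1 sample cannot reverse groups that do not overlap, and it moves a difference by at most the spread between replicates. Of 135 comparisons of a WNK probe set's difference with its value under an alternative, 132 moved by less than that spread, which for most was fixed in advance. The 3 that moved by more were among the 14 after quantile normalization (WNK1 to 0.10, WNK4 to 0.14 and Os.8100.1.S1_at of WNK9 to -0.22). The median of the WNK probe sets, 0.29, was 0.21 without _x_at and _s_at probe sets and 0.26 to 0.42 with 1 sample left out. With the replicate number as a block, limma called 1691 probe sets in place of 6583, 1 WNK probe set (WNK5) in place of 5, 5 genes of the processes placed with WNK kinases in place of 14, 4 of the abscisic acid list in place of 13, and 7 of the other kinase families in place of 15 (6 CIPK, 1 SAPK and 0 MAP kinase genes). The deviations of same-numbered samples from their group means had a correlation of -0.10 over all probe sets, close to none, and in the WNK family they went the same way in 10 of 14 probe sets, the 5 called ones among them. The labels name nothing that same-numbered samples share, and the numbers were not taken to pair samples. With the numbers crossed between groups, an alternative added after the data were seen, the counts were 3478, 2, 8, 7 and 8 (7 CIPK, 1 SAPK and 0 MAP kinase genes). With 1 sample left out, where the lone sample of a group is assumed to vary like the other group and 1 residual degree of freedom is left, the counts ran from 0 to 2477 for all probe sets, 0 to 1 for WNK, 0 to 3 for the processes, 0 to 3 for the abscisic acid list, 0 to 0 for the clock, 0 to 4 for the kinase families, 0 to 3 for CIPK, 0 to 1 for SAPK and 0 to 0 for MAP kinases. Clock genes called were 3 among brighter probe sets and 3 with the trended and robust prior, against 1, and 2 MAP kinase genes were called among brighter probe sets. Without _x_at and _s_at probe sets 3 WNK probe sets and 1 SAPK gene were called. Of 192 such comparisons for named list genes, 139 kept direction and side of the threshold, 49 kept direction but no longer passed, and 4 changed sign. For the list genes, too, much was fixed in advance. Blocks, priors and filters leave each difference as it is, and no gene can pass in a fit that calls no probe set. CCC1 changed sign as the mean of its probe sets (0.14) and, over the fits with 1 sample left out, ran from -0.33 to 0.16. RGG1 ran from -0.53 to 0.77 over those fits.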
